A study of Mus musculus with 8 samples.

Results

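A set of 82 genes had log2 values at least 1 higher, a 2-fold difference, in macrophages labelled Zc3h12a KO than in wild-type macrophages at each of 4 times: before lipopolysaccharide (LPS) and after 1, 2 and 4 h of it. Each gene was represented by its single-symbol probe set of highest mean, and 93 of 18193 genes (0.511%) met that rule. Of these, 11 were left out of the set by name (Retnla, Chil3, Arg1, Ccl24, Rnase2a, Prg4, Cxcl13, Fabp7, Alox15, Cd55 and S100a9). The genotype values that chose the 82 genes are given below as a description, with no test. The cells were peritoneal macrophages of mice that had been injected with thioglycollate, an irritant that recruits monocyte-derived macrophages into the cavity, and they received 100 ng/ml LPS. The groups were wild type and Zc3h12a KO (Zc3h12a-/-) at 0, 1, 2 and 4 h, with 1 Affymetrix array each and 8 in all. The labels name no age, sex, genetic background, deleted region or number of pooled animals.

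Zc3h12a encodes Regnase-1, an endoribonuclease that cuts stem-loops in the 3' untranslated regions of inflammatory mRNAs and so limits how long they last. LPS, sensed through TLR4, first induces immediate early and NF-kB dependent genes and then, through type I interferon, a later wave of antiviral genes. The peritoneal cavity also holds resident macrophages, which take up dying cells and differ from recruited macrophages in their surface receptors and secreted proteins. The 82 genes encode immunoglobulin chains, secreted ligands, circulating and recognition proteins, proteases and their inhibitors, surface receptors, transporters, enzymes, interferon-inducible GTPases and nuclear or signalling proteins. The grouping by role was made after the values had been seen.

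Promoter sequences are shown because these genes were chosen for a shared direction between genotypes, while their responses to LPS differed widely. RefSeq promoter windows of 300 bases (250 before and 50 after the gene start, GRCm38.p6) were found for 54 of the 82 genes. The 250 bases before the start are printed for Npy, which had the highest mean difference and no detected LPS response, and for Mmp13 and Serpinb2, which LPS raised at all 3 times. Capitals mark TGANTCA, a loose form of the motif of AP-1 factors such as FOS and JUN, with any base allowed in the middle. It was searched on both strands (the motif reads the same way on each when the middle base is left free).
Npy, chr6:49822460-49822709 (+): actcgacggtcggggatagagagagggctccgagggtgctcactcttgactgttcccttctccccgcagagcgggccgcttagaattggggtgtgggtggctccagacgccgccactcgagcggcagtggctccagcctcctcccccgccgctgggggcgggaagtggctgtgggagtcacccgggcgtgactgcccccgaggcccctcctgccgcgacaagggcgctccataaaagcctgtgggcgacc
Mmp13, chr9:7272264-7272513 (+): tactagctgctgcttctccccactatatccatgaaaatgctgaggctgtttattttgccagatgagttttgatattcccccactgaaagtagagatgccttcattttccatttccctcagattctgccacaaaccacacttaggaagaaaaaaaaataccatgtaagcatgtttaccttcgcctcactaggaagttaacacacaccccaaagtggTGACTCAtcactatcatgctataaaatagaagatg
Serpinb2, chr1:107511173-107511422 (+): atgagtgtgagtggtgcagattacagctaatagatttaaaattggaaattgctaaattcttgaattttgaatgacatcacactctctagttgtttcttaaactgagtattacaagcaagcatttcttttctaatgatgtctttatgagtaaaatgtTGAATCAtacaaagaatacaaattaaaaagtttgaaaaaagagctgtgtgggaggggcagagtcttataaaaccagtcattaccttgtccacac
The Npy stretch holds no match of this motif, and the other sequences hold 1 each. A match describes letters and is not a shown binding site.

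TGANTCA was found in the windows of 12 of the 54 genes (22.2%), against 6.82% of the 10136 tested genes with a window. Of the 54 genes, 10 had more than 1 window. Counted by window, the motif was in 18.8% of the members' 69 windows and in 7.81% of all windows in the table. It was chosen from 16 motifs searched, after the shares had been seen, so the difference is a description. The matches are printed with up to 10 bases on either side, to show how the middle base varied.
Arap2, chr5:62766337-62766363 (-): gcaggcgggcTGACTCAgctgcgcaac
Ecm1, chr3:95739617-95739643 (-): cagcagggacTGAGTCAtggcaggaaa
Hdac9, chr12:34528930-34528956 (-): atgctgttgtTGATTCAtatgcaaatg
Klf9, chr19:23141127-23141153 (+): taaacagagtTGAATCAccctccccac
Klhl13, chrX:23266906-23266932 (-): cttaagttttTGATTCAtttctcaagg
Me1, chr9:86695904-86695930 (-): gatgccgccgTGACTCAgcgcttctcg
Mmp13, chr9:7272469-7272495 (+): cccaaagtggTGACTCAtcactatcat
Ms4a8a, chr19:11081331-11081353 (-): tgaaacTGAGTCAacctgtcctc
Pon3, chr6:5256459-5256483 (-): ggtggactTGAATCAgaagaacaaa
Selp, chr1:164115115-164115141 (+): tgtccaggcaTGATTCAcacctgcgcc
Serpinb2, chr1:107511319-107511345 (+): agtaaaatgtTGAATCAtacaaagaat
Stfa3, chr16:36455347-36455373 (-): tgcccatcaaTGAGTCAagaaaactta
Each of the 4 possible middle bases occurred in 3 of these stretches. TGACTCA and TGAGTCA are the same site read on opposite strands, as are TGAATCA and TGATTCA. Of the 12 genes, 3 rose (Hdac9, Mmp13, Serpinb2), 3 fell (Arap2, Ecm1, Klf9) and 6 did not pass the test at 4 h of LPS in the comparison given below.

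Over the whole series, column medians lay between 3.14 and 3.21 on the log2 scale. The highest of 27 bacterial control probe sets, used as each array's background, lay between 2.96 and 3.26. All 17 general macrophage markers on the array were above background on at least 1 array, and their summed level lay between 16.25 and 16.30 in wild type and between 16.20 and 16.30 in labelled knockout (log2). That sum rests mostly on the brightest genes. Of the 17, 4 were higher and 7 lower in labelled knockout at all 4 times. Their mean differences ran from -1.53 (Aif1) to 0.90 (Itgam). The brighter Zc3h12a probe set read 6.12, 8.02, 8.87 and 8.57 in wild type and 6.73, 7.70, 8.75 and 8.50 in labelled knockout at 0, 1, 2 and 4 h. It was not lower throughout in the knockout arrays. Where it lies relative to the deletion is unknown here, so it checks nothing about the labels. The cells are therefore called labelled knockout, and every direction between genotypes rests on the label. For beta-actin (Actb), the 3' control probe set exceeded the 5' one, a sign of RNA quality, by more in labelled knockout at each time (3.11, 2.61, 2.52 and 2.30 against 2.64, 2.35, 2.43 and 2.16). For Gapdh it did so at 0 h (3.31 against 3.01) and by less at 1, 2 and 4 h (2.95, 3.04 and 2.90 against 2.99, 3.16 and 2.98). Mesothelial and stromal markers were lower at all 4 times for 9 of 15 genes, with a summed level of 10.65 to 11.05 in wild type and 9.06 to 9.66 in labelled knockout. The part of either in the results below was not tested. In such bulk samples, fewer cells of a type and less RNA per cell cannot be told apart.

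The mean difference over the 4 times ranged from 1.07 (Pon3, a paraoxonase) to 7.98 (Npy), with a median of 1.83. It lay under 1.5 for 18 genes, between 1.5 and 2 for 31, between 2 and 3 for 24 and at 3 or more for 9. For 66 of the 82 genes the lowest labelled-knockout array was above the highest wild-type array, whatever the time. The other 16 overlapped across times, and they include Serpinb2, Mmp13, Gm4951, Tcim and Timd4. Since the rule asked for a difference of 1 or more at each time, such separation follows in part from the choice of genes. It was not counted over all genes. The spread of the difference over the 4 times, as an SD, had a median of 0.33 and was under 0.2 for 24 genes. All 82 genes were above background on all 4 labelled-knockout arrays. On the wild-type arrays, 62 were above background at every time, 16 at some times and 4 (Npy, Lrg1, Chil4, Timd2) at none, so for these 4 only a lower bound of the difference can be given.

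**Figure D1:**
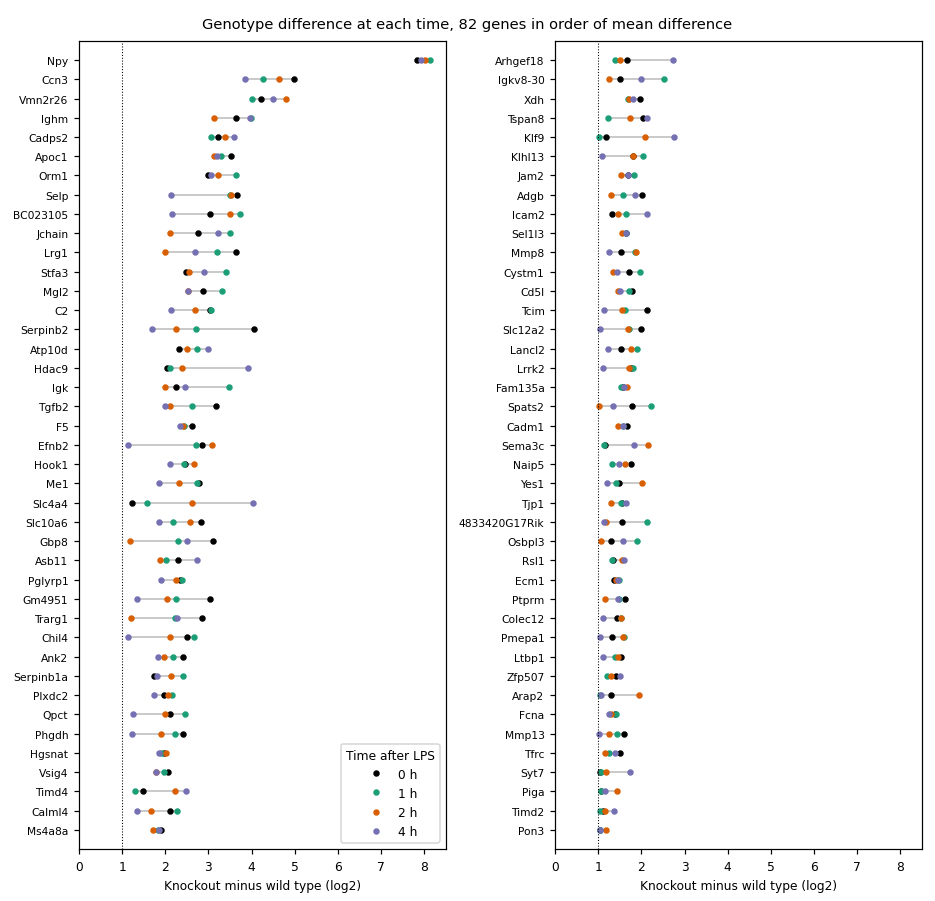
Knockout minus wild-type log2 difference of the 82 genes, in order of their mean (left panel first). Points are the 4 times, grey lines run from the lowest to the highest of them, and the dotted line marks the rule's limit of 1. Npy lies apart between 7.83 and 8.15, and most other genes lie between 1 and 4.

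LPS was examined with a limma fit of both genotypes together, with genotype as a block. Its estimates of the LPS change are separate from the genotype difference that the rule used, but its errors are not. They come from how that difference varied over the 4 times, moderated over all tested genes. The fit asked which of the 82 genes differed from 0 h. All 82 passed the filter on low values that left 12540 of 18193 genes, some of them through the labelled-knockout arrays alone. At 1 h, 3 of the 82 (3.66%) rose and 2 (2.44%) fell, against 3.85% and 6.62% of all tested genes. At 2 h, 14 (17.1%) rose and 9 (11%) fell, against 12.0% and 29.8%. At 4 h, 17 (20.7%) rose and 25 (30.5%) fell, against 14.4% and 29.4%. Among the 62 members above background on all 8 arrays, a subset chosen after seeing the data, 10 (16.1%) rose and 23 (37.1%) fell at 4 h. The median change of the 82 was -0.05, 0.02 and -0.14 at 1, 2 and 4 h, and that of all tested genes -0.09, -0.16 and -0.12. Over the 3 times, 19 genes only rose, 27 only fell, Tcim did both and 35 (42.7%) passed at no time, compared with 44.8% of all tested genes.

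The split depended on scaling. Centring on housekeeping genes moved the median change of all genes at 4 h from -0.12 to 0.13, at 2 h from -0.16 to 0.02 and at 1 h from -0.09 to 0.03. It gave 21 rising and 15 falling members at 4 h and 17 and 7 at 2 h. Cyclic loess gave 19 and 22 at 4 h and 17 and 6 at 2 h. Both scalings kept all increases. Housekeeping centring lost the decreases of Arap2, Arhgef18, Cd5l, Cystm1, Ecm1, Efnb2, F5, Icam2, Ltbp1 and Xdh at 4 h and of Icam2 and Rsl1 at 2 h. Cyclic loess lost those of Cystm1, Ecm1 and Icam2 at 4 h and of Gbp8, Icam2 and Rsl1 at 2 h. Of the calls at 4 h, 12 of the 17 increases and 12 of the 25 decreases held without any 1 of the 8 arrays. The increases that did not were Adgb, C2, Hdac9, Osbpl3 and Slc4a4. The decreases were Arap2, Arhgef18, Cd5l, Cystm1, Ecm1, Efnb2, F5, Icam2, Klf9, Ltbp1, Mmp8, Slc12a2 and Xdh. At 2 h, 9 of the 14 increases (not Hook1, Osbpl3, Sema3c, Timd4 and Tjp1) and 5 of the 9 decreases (not Arhgef18, Gbp8, Icam2 and Rsl1) held. At 1 h, 2 of the 3 increases (not Serpinb2) and neither decrease (Rsl1, Zfp507) held. Without the labelled-knockout 0 h array, 15 members fell at 4 h instead of 25. Without that array or the labelled-knockout 2 h array, 5 fell at 2 h instead of 9. Among decreases at 1 h, the count of 2 went to 1 without the wild-type 1 h array and to 0 without either 0 h array or the labelled-knockout 1 h array, with 4, 2 and 8 members (wild-type 0 h, labelled-knockout 0 h and 1 h left out) at an unadjusted limma p under 0.05 in those fits.

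Secreted ligands and matrix proteins were Npy, Ccn3, Tgfb2, Ltbp1, Ecm1 and Sema3c. Npy, which encodes neuropeptide Y, a transmitter of neurons, read 2.84, 2.78, 2.74 and 2.82 in wild type and 10.66, 10.93, 10.76 and 10.76 in labelled knockout at 0, 1, 2 and 4 h. The wild-type readings were all at background, so the difference was at least 7.66, or at least 203-fold. Ccn3, a matricellular protein, read 3.34, 4.04, 3.55 and 3.56 against 8.32, 8.31, 8.18 and 7.40. Every wild-type reading of Ccn3 was near background, and the knockout arrays were high at all times. The latent growth factor gene Tgfb2 read 5.74, 6.03, 6.71 and 5.80 against 8.92, 8.65, 8.82 and 7.79. Ltbp1, whose protein holds latent TGF-beta in the matrix, differed by 1.52, 1.39, 1.45 and 1.11. Ecm1, an extracellular matrix protein, had one of the steadiest differences, with a mean of 1.43 and an SD of 0.06 over the times. In the LPS comparison Sema3c, a secreted semaphorin, rose by 1.51 (SE 0.27) at 4 h (adjusted p = 0.00453). It read 2.58, 2.89, 3.12 and 3.76 in wild type, above background only at 4 h, and 3.73, 4.02, 5.26 and 5.58 in labelled knockout, so it passed the filter on low values mostly through the knockout arrays. Ltbp1 fell by 0.54 (adjusted p = 0.0177, and 0.135 after housekeeping centring). For Ecm1 the change was -0.32 (adjusted p = 0.0485), a call that held in none of the 8 fits without 1 array, nor after cyclic loess (0.165) or housekeeping centring (0.588). The other 3 did not pass at any time.

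Circulating, complement, coagulation and recognition proteins made up 10 genes, with mean differences from 1.07 to 3.28. Apoc1, an apolipoprotein, read 5.61, 5.63, 5.72 and 5.91 in wild type and 9.13, 8.91, 8.86 and 9.10 in labelled knockout. Orm1, the acute-phase protein alpha-1-acid glycoprotein, read 5.86, 5.22, 5.93 and 5.89 against 8.86, 8.87, 9.16 and 8.96. In both genes the genotypes lay about 3 log2 units apart at every time, and neither changed with LPS past the threshold. The leucine-rich glycoprotein gene Lrg1 was at background on all wild-type arrays and read 6.51, 6.18, 4.71 and 5.43 in labelled knockout, which is at least 6.03-fold. Chil4, a chitinase-like gene close in sequence to Chil3, so that its probes may also read that mRNA, was at least 3.31-fold higher. Complement C2 read 5.05, 4.90, 5.28 and 6.70 against 8.08, 7.97, 7.97 and 8.84, and it alone of the 10 rose, by 1.20 (SE 0.23, adjusted p = 0.00662) at 4 h. Factor V (F5), a coagulation cofactor, and Cd5l, a secreted scavenger receptor family protein of macrophages, fell by 0.52 and 0.64 at 4 h (adjusted p = 0.0122 and 0.00765, and 0.121 and 0.0536 after housekeeping centring). The mean differences of the pattern recognition genes Pglyrp1, which binds peptidoglycan, and Fcna, a ficolin, were 2.21 and 1.33.

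Immunoglobulin chains were represented by Ighm (the heavy chain of IgM), Igk, Igkv8-30 and Jchain, which joins IgM or IgA chains. Ighm read 5.29, 5.46, 5.58 and 5.46 in wild type and 8.92, 9.45, 8.72 and 9.43 in labelled knockout. Jchain read 3.49, 3.45, 4.20 and 3.78 against 6.24, 6.94, 6.31 and 7.01. Igk and Igkv8-30 differed by 2.54 and 1.82 on average, and since light chain segments share sequence, their probe sets cannot be taken as separate genes. None of the 4 passed the LPS test at any time, although Igk and Igkv8-30 rose at 4 h after housekeeping centring. In labelled knockout all 4 were higher at 1 and 4 h than at 0 and 2 h, for example 8.89 and 8.99 against 8.13 and 8.22 for Igk. Of 15 B cell markers on the array, Ighm and Jchain were the only members. Of the whole list, 2 were higher and 6 lower at all 4 times and 3 (Pax5, Fcer2a, Cr2) were at background on all arrays. The list's summed level was 8.75 to 10.03 in wild type and 9.59 to 10.24 in labelled knockout. Cd79a, part of the B cell receptor, read 3.40 to 4.02 in wild type and 3.20 to 3.39 in labelled knockout, and Ms4a1, which encodes CD20, 3.07 to 3.45 and 3.28 to 3.64. Cd22, also expressed by other leukocytes, read 7.97 to 9.69 in wild type and 6.62 to 8.27 in labelled knockout and was the brightest of the list in wild type. The part of B lineage cells in the immunoglobulin values was not tested.

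Proteases and protease inhibitors comprised Serpinb2, Mmp13, Mmp8, Serpinb1a and Stfa3. Serpinb2, an inhibitor of plasminogen activators, read 5.12, 8.57, 9.94 and 9.60 in wild type and 9.18, 11.27, 12.19 and 11.29 in labelled knockout. The unstimulated knockout array thus lay between the wild-type arrays at 1 and 4 h of LPS. Serpinb2 rose by 2.77, 3.92 (SE 0.51) and 3.29 at 1, 2 and 4 h (adjusted p = 0.0208, 0.00168 and 0.0025). Its call at 1 h was lost without the wild-type 0 h or 1 h array or the labelled-knockout 1 h array, where adjusted p reached 0.115 and the value fell to 1.85 without the wild-type 0 h array, and it was 0.105 under trend and robust eBayes. The collagenase gene Mmp13 read 6.47, 8.13, 10.03 and 10.22 against 8.06, 9.56, 11.28 and 11.23, and rose by 1.58, 3.39 and 3.46 (SE 0.16; adjusted p = 0.00215, 4.83e-05 and 2.45e-05). The promoters of these genes are printed above with their TGANTCA letters marked. Mmp8, the neutrophil collagenase, and Serpinb1a, an inhibitor of neutrophil proteases, fell at 4 h by 0.93 and 1.24, while Stfa3, a cysteine protease inhibitor, did not pass (0.70, adjusted p = 0.0502). Of 11 neutrophil markers on the array, Mmp8 was the only member. Of that list, 5 were higher and 1 lower at all 4 times, its summed level was 10.63 to 12.45 in wild type and 11.94 to 12.70 in labelled knockout, and Elane, Ltf and Cxcr2 were at background on all arrays. Lcn2, which macrophages also express, read 4.69, 4.07, 8.10 and 10.82 against 11.02, 10.84, 10.91 and 11.27. The part of neutrophil RNA in these values was not tested.

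**Figure D2:**
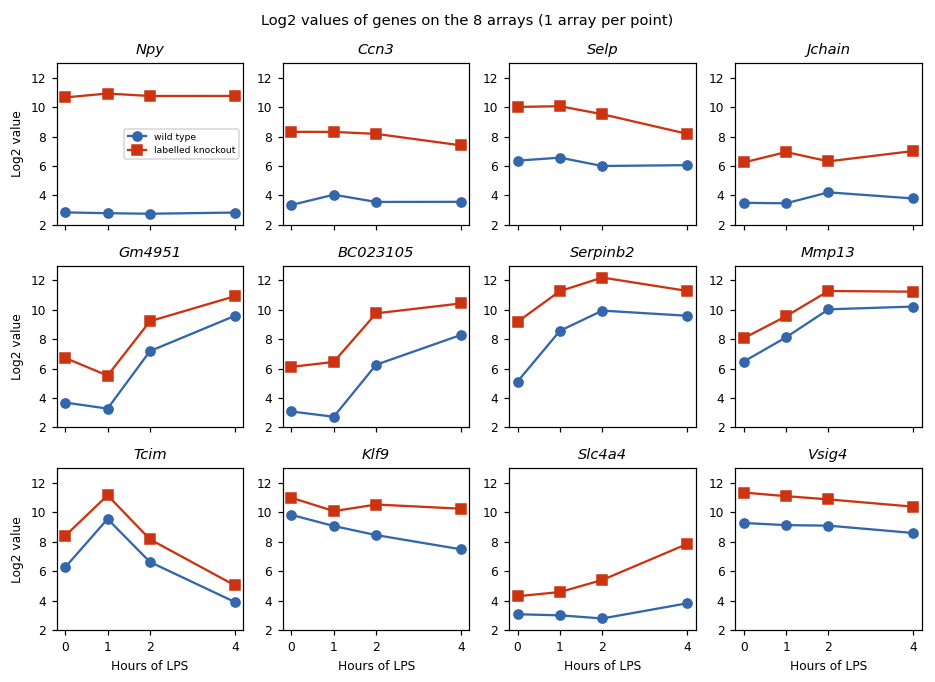
Log2 values of 12 of the genes against hours of LPS, with wild-type arrays as blue circles and labelled-knockout arrays as red squares, 1 array a point. Npy ran nearly flat, Vsig4 was lowest at 4 h in both genotypes, Gm4951, BC023105, Serpinb2 and Mmp13 rose in both genotypes, Tcim peaked at 1 h, and Slc4a4 climbed to 7.86 in labelled knockout against 3.82 in wild type.

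Surface receptors and adhesion proteins formed the largest group, with 17 genes and a median mean difference of 1.78. P-selectin (Selp), which binds leukocytes, read 6.36, 6.56, 5.99 and 6.05 in wild type and 10.01, 10.06, 9.52 and 8.18 in labelled knockout. The complement receptor gene Vsig4 read 9.28, 9.14, 9.10 and 8.60 against 11.36, 11.11, 10.89 and 10.39. Timd4, a receptor for phosphatidylserine on dying cells, read 4.87, 5.30, 5.95 and 6.39 against 6.34, 6.61, 8.17 and 8.86. These genes mark resident peritoneal macrophages, as do Icam2, Cd5l, Tgfb2, Ltbp1 and Serpinb2. Of 17 such markers on the array, 15 were higher in labelled knockout at all 4 times and 12 were 1 or more higher at all 4. Of these 12, 8 were among the 82 genes, and Prg4, Alox15, Cxcl13 and Fabp7 had been left out by name. Mean differences were smaller for Gata6 (0.71), Garnl3 (0.13) and Bhlhe40 (0.11), and the last 2 were not higher at every time. The pattern was already known when the list was used. The vomeronasal receptor gene Vmn2r26 read 3.20, 3.61, 3.46 and 3.13 in wild type, near background, and 7.41, 7.62, 8.25 and 7.62 in labelled knockout. Mgl2, a galactose-binding lectin and marker of alternative activation, differed by 2.81 on average. Of the 20 genes of the alternative activation list on the array, Mgl2 and Tfrc were members, 12 were higher and 3 (Pparg, Stab1 and Il4ra) lower in labelled knockout at all 4 times, and 6 were 1 or more higher at all 4. The related lectin gene Clec10a differed by 0.11. Timd2, a ferritin receptor, was the faintest, with a bound of at least 1.72-fold.

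With LPS, 3 of the 17 surface genes rose and 6 fell at 4 h. Timd4 rose by 1.46 at 2 h and 2.02 (SE 0.29) at 4 h (adjusted p = 0.00941 and 0.00203). The junction genes Tjp1, which encodes the scaffold ZO-1, and Jam2 rose by 1.80 (SE 0.12) and 1.49 (SE 0.12) at 4 h (adjusted p = 9.66e-05 and 0.000164). The decreases at 4 h were Efnb2, an ephrin ligand (by 1.56), the transferrin receptor gene Tfrc (by 1.07), the scavenger receptor gene Colec12 (by 1.07), the adhesion gene Cadm1 (by 0.99), Vsig4 (by 0.82) and Icam2 (by 0.79, and -0.46 with adjusted p = 0.0888 without the wild-type 4 h array). Efnb2 read 5.50, 6.33, 6.41 and 4.80 in wild type and 8.34, 9.05, 9.48 and 5.93 in labelled knockout. Both genotypes were thus higher at 1 and 2 h than at 0 h and lowest at 4 h, and the call was lost without the wild-type 0 h or labelled-knockout 0 h array, with -1.83 (adjusted p = 0.0775) and -1.29 (0.173). Leaving out either 4 h array gave -0.69 (labelled knockout, 0.0334) and -2.44 (wild type, 0.000962). The call was also lost after housekeeping centring (0.0531) and with trend and robust settings (0.0618). Tfrc, the only one of 18 reported Regnase-1 target mRNAs on the array that belonged to the set, read 10.31, 10.49, 10.30 and 9.30 against 11.80, 11.74, 11.45 and 10.68. It differed by between 1.15 and 1.49 at each time and was lowest at 4 h in both genotypes. Of the 18 reported targets, 8 were higher and 1 lower in labelled knockout at all 4 times. The share of all genes that met the rule was 0.511%.

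Transport and metabolism accounted for 12 genes. The bicarbonate cotransporter gene Slc4a4 read 3.07, 3.0, 2.78 and 3.82 in wild type and 4.30, 4.58, 5.40 and 7.86 in labelled knockout. From 0 to 4 h it was 0.74 higher in wild type and 3.56 higher in labelled knockout. Its fitted increase at 4 h, averaged over genotypes, was 2.15 (SE 0.62, adjusted p = 0.0322). It was 1.39 without the labelled-knockout 0 h array (adjusted p = 0.208) and 1.04 without the labelled-knockout 4 h array (0.14), while leaving out the wild-type 4 h array gave 3.27 (0.00528). Under trend and robust settings the adjusted p was 0.0657, and none of its other 4 probe sets was 1 or more higher at all 4 times. Atp10d, a lipid flippase, read 4.20, 4.12, 5.38 and 4.01 against 6.52, 6.86, 7.89 and 6.99, and rose at 2 h by 1.28 (adjusted p = 0.00201). Osbpl3, an oxysterol-binding family protein, rose by 1.04 at 4 h. Hgsnat, a lysosomal acetyltransferase, fell by 1.42 (SE 0.11, adjusted p = 0.00013) at 4 h, with a genotype difference between 1.86 and 2.02 throughout. Slc12a2, an ion cotransporter, and Xdh, which makes uric acid, fell by 1.12 and 0.61. The malic enzyme gene Me1 and Phgdh, the first enzyme of serine synthesis, had mean differences of 2.42 and 1.94 and did not pass the LPS test.

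Interferon-inducible GTPases and an innate sensor gave 4 genes. BC023105 read 3.08, 2.72, 6.26 and 8.29 in wild type and 6.12, 6.45, 9.76 and 10.43 in labelled knockout. Gm4951 read 3.69, 3.28, 7.19 and 9.59 against 6.72, 5.52, 9.22 and 10.92. In either genotype both were higher at 2 and 4 h than at 0 and 1 h. They rose by 3.41 and 3.0 at 2 h and by 4.76 (SE 0.36) and 5.05 (SE 0.36) at 4 h (adjusted p = 0.000133 and 0.000109), the largest increases of the set. The 26 genes of the interferon-stimulated list on the array included none of the 82, and of its 25 tested genes 8, 23 and 25 rose at 1, 2 and 4 h. The guanylate-binding protein gene Gbp8 read 3.41, 3.29, 2.90 and 4.57 against 6.51, 5.58, 4.09 and 7.08. It fell by 1.46 at 2 h (adjusted p = 0.0282), a call lost without the wild-type 4 h array (0.0522), the labelled-knockout 0 h (-0.91, 0.173), 2 h (-0.74, 0.107) or 4 h array (0.0522) and after cyclic loess (0.0578). Naip5, which senses bacterial flagellin, fell by 1.11 at 2 h and 0.85 at 4 h.

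Nuclear factors and signalling, trafficking or scaffold proteins gave 16 genes, of which 4 rose and 5 fell at 4 h. Pmepa1, a membrane protein that dampens TGF-beta signalling, read 4.59, 4.74, 7.32 and 8.75 in wild type and 5.92, 6.33, 8.88 and 9.79 in labelled knockout, and rose by 4.01 (SE 0.16, adjusted p = 1.59e-05) at 4 h. Lrrk2, a kinase, rose by 1.57 and Syt7, a calcium sensor of exocytosis, by 1.23. The deacetylase gene Hdac9 read 3.20, 3.14, 2.82 and 4.04 against 5.25, 5.24, 5.22 and 7.97, and its fitted increase at 4 h was 1.78 (adjusted p = 0.0183). Leaving out the labelled-knockout 0 h array gave 1.40 (0.129), the labelled-knockout 4 h array 0.91 (0.015) and the wild-type 4 h array 2.65 (0.000821). Tcim, a small regulator of transcription, read 6.27, 9.55, 6.63 and 3.90 against 8.41, 11.17, 8.17 and 5.04. It rose by 3.02 (SE 0.23, adjusted p = 0.000666) at 1 h and fell by 2.87 (adjusted p = 0.000159) at 4 h, with the same shape in both genotypes. Klf9, a Kruppel-like factor, read 9.84, 9.08, 8.46 and 7.49 against 11.01, 10.09, 10.54 and 10.26. It fell by 1.55 at 4 h (adjusted p = 0.0236), and the call was lost under trend and robust eBayes (0.0992) and also without the wild-type 0 h (-1.16, adjusted p = 0.165) or 4 h array (-0.88, 0.128). Arhgef18 fell by 1.42 at 2 h (adjusted p = 0.0132; up to 0.0906 without the wild-type 0 h or the labelled-knockout 0 h or 2 h array, and 0.0716 with the mean of its probe sets). The zinc finger genes Zfp507 and Rsl1 fell at 1 and 2 h, by 0.78 and 0.95 and by 0.73 and 0.49, and had no such call at 4 h. The ankyrin gene Ank2 fell by 1.62 (SE 0.16, adjusted p = 0.000403). Cadps2, which primes secretory vesicles, differed by 3.31 between genotypes and did not pass the LPS test.

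Among the 8 remaining genes, Lancl2 rose by 1.92 at 2 h and 2.03 (SE 0.17, adjusted p = 0.000225) at 4 h. Adgb, an androglobin, rose by 0.89 at 4 h. Sel1l3 fell by 1.75 (SE 0.10, adjusted p = 5.59e-05), the calmodulin-like Calml4 by 1.55 and Cystm1 by 0.61. The unnamed-function gene 4833420G17Rik fell by 2.15 (SE 0.25, adjusted p = 0.00115) at 2 h. Fam135a and Spats2 did not pass, and Fam135a had a difference between 1.54 and 1.65 at all times.

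**Figure D3:**
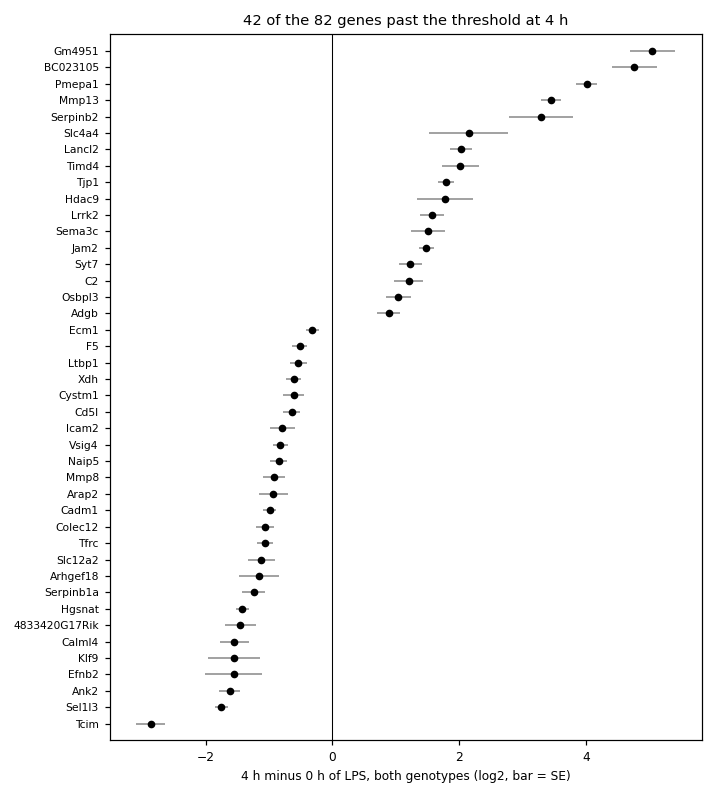
Change at 4 h of LPS against 0 h (log2), averaged over both genotypes by limma, for the 42 genes past the threshold. Points are estimates and bars are standard errors. Gm4951, BC023105 and Pmepa1 lie highest, at 5.05, 4.76 and 4.01, and Tcim lowest, at -2.87.

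Within each genotype LPS changes rest on 2 arrays and were not tested. At 4 h, 13 of the 82 genes were 2-fold or more above their 0 h array and 11 below it in wild type, against 8.07% and 13.4% of all tested genes. In labelled knockout 15 were above and 19 below, against 7.76% and 13.3%. These counts are 15.9%, 13.4%, 18.3% and 23.2% of the set. Of the 39 genes that moved 2-fold or more in either genotype at 4 h, 37 moved in the same direction in both. The exceptions were Chil4, at background in wild type, and Tgfb2. The same share was not counted over all tested genes, so whether it is particular to this set is not known.

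**Figure D4:**
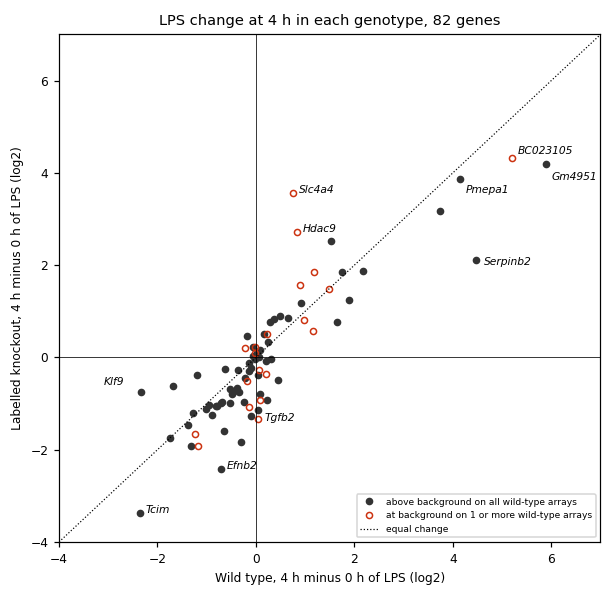
Change at 4 h against 0 h in wild type (horizontal) and in labelled knockout (vertical), log2, for the 82 genes, each axis from 1 array a time. Open red circles are genes at background on 1 or more wild-type arrays, and the dotted line marks equal change. Slc4a4 and Hdac9 lie above the line (3.56 against 0.74 and 2.72 against 0.84), and Serpinb2 and Efnb2 below it (2.10 against 4.48 and -2.42 against -0.70).

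The genotype difference was not the same at all times for each gene, although the rule kept it at 1 or more. Its median was 1.97, 1.97, 1.84 and 1.77 at 0, 1, 2 and 4 h. It was smaller at 4 h than at 0 h for 53 genes and larger for 29, by 1 or more for 9 and 4 of them. From 0 h to the mean of the LPS times it shrank most for Serpinb2 (by 1.85, from 4.07), Gm4951 and Gbp8. Lrg1 came next, but its wild-type level was at background, so that the size of its change is not known. It grew most for Slc4a4 (by 1.52, from 1.22 at 0 h to a mean of 2.75, with 4.04 at 4 h), Klf9, Hdac9 and Sema3c. Gbp8, Slc4a4, Hdac9 and Sema3c were at background on 1 or more wild-type arrays, so the sizes of their changes are uncertain too. These values belong to the contrast that chose the genes and have no test. The counts were not made over all genes.

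The rule's limit separated close values. Just inside it were Spats2, Mmp13 and Klf9, with smallest differences of 1.009, 1.012 and 1.014. Just outside were the chemokine gene Ccl17, the cytokine signalling inhibitor gene Cish and Plekhg1, at 0.995, 0.994 and 0.968. Ccl17 read 4.82, 5.15, 6.99 and 8.29 in wild type and 7.59, 8.39, 7.98 and 9.31 in labelled knockout.

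Other probe sets of the same genes were not used by the rule, although they come from the same arrays. There were 98 for 40 of the genes, and 42 genes had no other. Of all 98, 44 were higher in labelled knockout at all 4 times and 19 were 1 or more higher at all 4. A filter for values above background on all 4 labelled-knockout arrays, which favours probe sets high there, left 43. Of the 43, 37 were higher at all 4 times and the same 19 were 1 or more higher. No share over all probe sets was counted. The 19 belong to 11 genes, namely 4833420G17Rik, Ank2, C2, Cadm1, Ccn3, Efnb2, Ighm, Klf9, Serpinb1a, Tfrc and Tgfb2. The Ighm probe set that lay furthest apart read 10.11, 10.80, 10.10 and 10.75 in labelled knockout and was at background on all wild-type arrays. The second Ccn3 probe set differed by 4.56 on average. For 16 genes at least 1 other probe set had a mean difference below 0. These were Ank2, Arhgef18, Cystm1, Fam135a, Hdac9, Ighm, Igk, Jam2, Klf9, Ltbp1, Osbpl3, Pmepa1, Sema3c, Syt7, Tspan8 and Zfp507. The lowest of these values were -0.55 for Ighm and -0.26 for Arhgef18. Only 1 such probe set each of Ighm, Jam2 and Tspan8 was above background on all 4 labelled-knockout arrays. Their mean differences were -0.55, -0.02 and -0.001. The others were at background on 1 or more of those arrays, so the sign says little there.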

How the data were processed

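The authors deposited log2 values of 45101 probe sets on 8 arrays, made with RMA per the submitters' processing notes. RMA corrects background, aligns the arrays' distributions and summarises probes, so a change in total mRNA would not be seen. Its version, the scan batches and the genome build are not given in the sources used here. All value columns were used. Of the probe sets, 34945 had 1 gene symbol in the platform annotation, 932 had several and 9224 were unnamed or controls. RefSeq (GRCm38.p6) held the Entrez identifiers of 34741 and changed 0 symbols.

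Genes were tested when their second-highest array reached 3.16, the median of all values. The LPS times were compared with 0 h by limma 3.58.1 in R 4.3.3 (lmFit, eBayes, genotype as a block, 3 residual degrees of freedom), with Benjamini-Hochberg adjustment over all 12540 genes and a threshold of 0.05. Errors are moderated standard errors. With 1 array a group, p-values measure the spread left after additive genotype and time effects. On simulated data for the 12540 genes, the fit recovered 61, 56 and 61 of 100 genes changed by 1 and 92, 90 and 92 of 100 changed by 2 at 1, 2 and 4 h.

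Named members were the 16 of largest mean difference, the 10 largest called increases and decreases with LPS, the 4 of most grown and most shrunken difference, the 3 on either side of the limit, list members and genes with disagreeing probe sets. Others were chosen after their values were seen. The members and lists were chosen with earlier results of these data known. Alternatives were other scaling, filters, probe set choices, eBayes settings, no genotype block and leaving out each array.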

Additional observations from a re-analysis of the deposited data

Results flagged for a closer look

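On the probe sets used, Apoc1, Ccn3 and Tgfb2 were above background on all 8 arrays. They moved in opposite directions in the genotypes at all 3 LPS times, which was not tested. The difference between the genotypes' responses belongs to the contrast that chose the genes, and each response shares its 0 h array. In wild type, where its values were near background, Ccn3 lay above its 0 h value by 0.70, 0.21 and 0.22 at the successive times. In labelled knockout it differed from its 0 h value by -0.006, -0.14 and -0.92. Tgfb2 changed by 0.28, 0.96 and 0.051 in wild type and by -0.27, -0.10 and -1.13 in labelled knockout. Its other probe sets did not share this, since all read higher in labelled knockout at 1 and 2 h than at 0 h. The brightest of them after 1 h read 5.66, 5.94 and 6.07 there at 0, 1 and 2 h. For Apoc1 the values were small. They were 0.019, 0.11 and 0.30 in wild type, but -0.22, -0.27 and -0.030 in labelled knockout. Npy and Slc10a6 also had opposite signs, but Npy was at background on all 4 wild-type arrays and Slc10a6 on 2 of them.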

How the results depend on the processing

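Among the 20 members named for their LPS change, 282 combinations of gene and alternative kept direction and call, 38 kept direction only and 0 reversed. Without the genotype block, 0, 2 and 3 members rose and 0, 0 and 0 fell at 1, 2 and 4 h by limma, with 0, 1 and 1 falling and 1 rising at 1 h at an unadjusted p under 0.05. That fit counts the genotype difference, which is large by choice in these genes, as error. Members falling at 1 h numbered 1 with the mean of a gene's probe sets, those falling at 2 h 15 with trend and robust settings, and those falling at 4 h 15 after housekeeping centring. Among the 62 members above background on all arrays, an alternative chosen after seeing the data, 1 fell at 1 h and 10 rose at 4 h. Leaving out single arrays gave 2 to 4, 10 to 15 and 14 to 19 rising and 0 to 2, 5 to 10 and 15 to 27 falling members at 1, 2 and 4 h. The rule found 35 genes at a limit of 1.5 and 116 at 0.8, 89 after cyclic loess, 72 after housekeeping centring and 56 with mean probe sets. No paired analysis was possible because each group has 1 array and the labels carry no replicate numbers. The number of arrays limits the precision, and changes near background are understated.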

Other observations

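The RefSeq order of the measured genes showed several of the 82 genes beside each other. Selp and F5 were neighbours with 0 measured genes between them, as were Piga and Asb11. Gm4951 and BC023105, and Timd2 and Timd4, had 1 measured gene between them, Npy and Osbpl3 had 2, and Mmp13 and Mmp8 had 5. Igk and Igkv8-30, of the same light chain locus, had 9. In all, 11 pairs of members next to each other had 10 or fewer measured genes between them. How many such pairs other sets of 82 genes would hold was not counted, so the number does not show clustering. On the chromosome of Zc3h12a lay 2 members (Orm1 and Hook1), which is 2.44% of the set against 6.03% of the measured genes. Among the 100 measured genes on either side of Zc3h12a there were 0 members.

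Of the 16 motifs searched in the 300-base promoter windows on both strands, 11 had a higher and 4 a lower share among the members than among tested genes, and 1 was found in neither. TATAAA was found for 13 of 54 members (24.1%) against 10.03% of tested genes with a window. Counted by window, it was in 20.3% of the members' windows and 13.6% of all windows. CACCTG was found for 16 members (29.6%) against 20.8% of tested genes. TGACCT, a nuclear receptor motif, was found for 11 (20.4%) against 15.3%. These shares are descriptions of short windows, with no test.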
